A study of Homo sapiens with 8 samples.

Results

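Hormone-free progesterone receptor (PR) regions are places where the PR antibody gave a peak in cells that had received no hormone. They were chosen as the untreated PR peaks of T47D A1-2 cells or T47D MTVL WT cells on chromosomes 1 to 22 and X, merged where they overlapped by 1 bp, that overlapped no untreated glucocorticoid receptor (GR) peak and no input peak of A1-2 cells. The untreated lists merged into 845 regions. The rule left out 154 at a GR peak, 34 at an input peak and 24 at both, and kept 633 members. All lists of the series together merge into 53274 regions. Of the 633 members 42 lay in either of 2 windows drawn around clusters of transfer RNA (tRNA) genes, 36 of them in the chromosome 6 window, which runs from 26250000 to 29000000, and 6 in the chromosome 5 window, which runs from 180520000 to 180660000 (hg19). These 42 window members are the subject of what follows, and the 591 members outside serve for comparison.

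The series mapped PR and GR in T47D, an established human breast cancer line, by ChIP-seq, which sequences the DNA fragments that an antibody pulls down with its protein. The A1-2 groups were PR without hormone, PR after R5020 (a synthetic progestin), GR without hormone, GR after dexamethasone (Dex, a synthetic glucocorticoid), GR after R5020, and input DNA, which is chromatin taken without an antibody. The MTVL groups, the line labelled as the control, were PR without hormone and PR after R5020. Hormone was given at 10 nM for 60 min, and every culture had first been kept in stripped serum and then starved of serum. Each of these 8 groups was 1 library, so no difference between groups could be set against replicate spread, and p-values are left out. GR was precipitated with other antibodies than PR, GR and input lists of MTVL cells were not analysed here, and neither was a precipitation with a nonimmune antibody. Read depth was unknown. Intervals are 95% intervals over regions and cover counting error only.

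tRNA genes are short genes transcribed by RNA polymerase III. Their promoter lies inside the gene, in the A box and the B box, which the factor TFIIIC binds before TFIIIB recruits the polymerase. PR, by contrast, is a steroid receptor that in its classical mode binds DNA at hormone response elements after a progestin has bound it and then acts on genes of RNA polymerase II. In humans a large part of the nuclear tRNA genes stands in a cluster on the short arm of chromosome 6, mixed with histone genes, and a smaller cluster stands near the end of the long arm of chromosome 5. In the RefSeq gene table, which is of the GRCh38.p14 assembly, 155 of 443 nuclear tRNA genes (35.0%) were on chromosome 6 and 18 on chromosome 5. The longest stretch of tRNA genes with gaps of at most 1 Mb held 144 of them on chromosome 6, over 2.70 Mb, along with 21 histone genes. On chromosome 5 such a stretch held 17 over 125 kb. The chromosome 6 stretch was led by genes for alanine (22), serine (17) and isoleucine (13) tRNAs, and the chromosome 5 stretch by genes for valine (8) and leucine (4) tRNAs. No genome or annotation of the hg19 build was used here, so none of these genes was placed on the members, and whether a given member covers a tRNA gene was not analysed.

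Every window member had an untreated PR peak in A1-2 cells, and 11 also had one in MTVL cells. Since these peaks chose the members, their values are a description. The untreated peak score of a window member, a deposited value that grows as the peak caller's p falls and starts at 100, had a lowest value of 118, a median of 336 and a highest value of 1147 in the A1-2 list. Of the 42 members 38 lay above 151, the median score of all 688 untreated A1-2 peaks used. In the MTVL list the 11 members scored from 107 to 370, with a median of 125, and 4 of them lay above 143, the median of the 221 untreated MTVL peaks. Scores from different libraries depend on their depth and are set side by side, not compared as levels.

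The strongest members of the chromosome 6 window were also found in both lines. The member from 26521024 to 26522012 scored 1147 in untreated A1-2 cells and 299 in untreated MTVL cells. The member from 27869861 to 27871175 scored 1008 and 370, and the one from 28863704 to 28864604 scored 943 and 109. After R5020 these were PR peaks in both lines again, with scores in A1-2 and MTVL cells of 404 and 506 for the first, 411 and 453 for the next, and 417 and 214 for the last. The next in order, from 26568528 to 26569646 and from 26312906 to 26313925, had untreated A1-2 scores of 665 and 604, and untreated MTVL scores of 108 and 107. None of these members had a GR peak in any GR library.

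In the chromosome 5 window the 6 members stood within 49.3 kb. The strongest, from 180633701 to 180634092, scored 902 in untreated A1-2 cells and had no peak in untreated MTVL cells, and after R5020 it scored 275 in A1-2 and 259 in MTVL cells. The members from 180648282 to 180649944, from 180644332 to 180645739 and from 180614315 to 180616407 had untreated peaks in both lines, with A1-2 scores of 627, 508 and 398 and MTVL scores of 125, 129 and 114. In the first and the last of these, a single wide MTVL peak took in several narrow A1-2 peaks, 2 in the first (from 180648793 and from 180649179) and 3 in the last (from 180614749, 180615343 and 180615817). The member from 180618496 to 180618919 scored 493 in A1-2 cells only. The weakest, from 180600614 to 180600861 with a score of 144, was the chromosome 5 member with no PR peak after R5020 in either line.

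**Figure D1:**
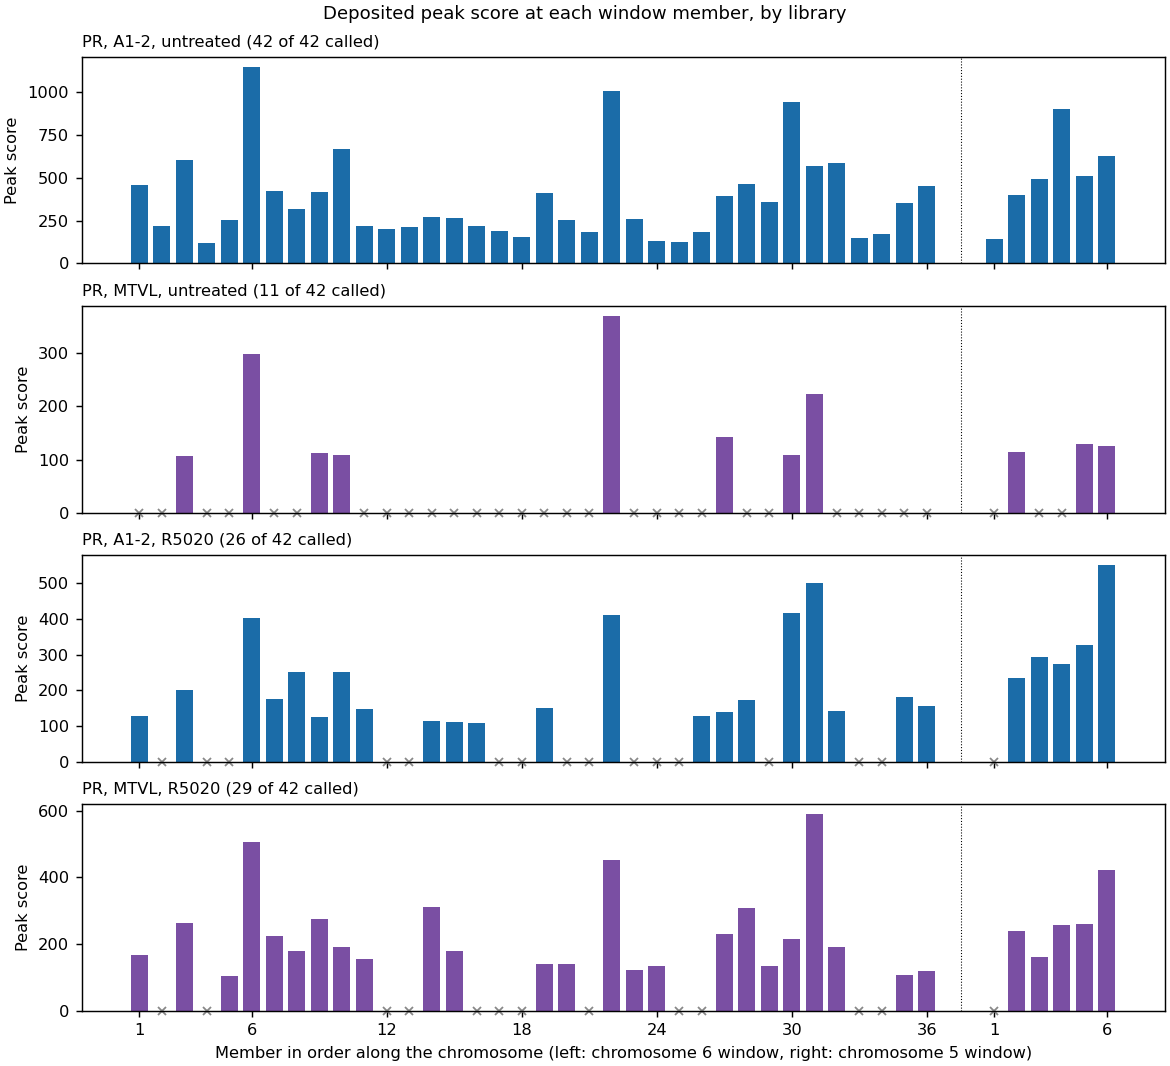
Deposited peak score (vertical axis, its own scale in each panel) of the 42 window members in order along the chromosome (horizontal axis), with the chromosome 6 window left of the dotted line and the chromosome 5 window right of it. Bars are called peaks and crosses mark members with no peak in that list. The 11 members called in untreated MTVL cells are among those that score from 395 to 1147 in untreated A1-2 cells.

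The remaining members seen in both lines without hormone lay on chromosome 6 from 28908102 to 28909878 (A1-2 score 570, MTVL score 224), from 26553581 to 26555027 (417 and 112) and from 28805717 to 28806978 (395 and 143). All 11 members of this kind scored at least 395 in A1-2 cells, with a median of 604, whereas the 31 members called in A1-2 cells only had a median of 252 and reached 902. Members called in both lines were 26.2% (13.9 to 42.0) of the window members and 6.81% (4.57 to 9.70) of the 411 outside members with an A1-2 peak, against 4.85% of all 845 untreated PR regions. Because the rule joined both untreated lists, nothing is read from these shares. Widths differed by line. Untreated A1-2 peaks in the windows had a median width of 334 bp and untreated MTVL peaks one of 1294 bp, against 222 bp and 1233 bp outside.

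Along chromosome 6 the members formed 4 groups with gaps of over 250 kb between them. The first, from 26286625 to 26572180, held 11 members and 4 of the 8 seen in both lines. A second of 2 members lay from 26987987 to 27145173, the next of 9 members from 27446574 to 27871175, and the last of 14 members from 28625892 to 28950201. The median distance from a window member to the nearest other member was 7.15 kb. The windows held whole groups and did not divide them. The nearest member before the chromosome 6 window lay 8.86 Mb from its start (from 17389279 to 17390774) and the nearest after it 1.72 Mb from its end (from 30718958 to 30720849). Both were peaks of MTVL cells only, with untreated scores of 231 and 135, and both were strong PR peaks after R5020, at 2153 and 1214 in A1-2 cells. Just inside the bounds, the members from 26286625 and to 28950201 scored 457 and 451 in untreated A1-2 cells and 128 and 157 after R5020. Before the chromosome 5 window the nearest member lay 3.49 Mb away (from 177026961 to 177027194, score 155), and none followed it.

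The windows were chosen for their untreated PR peaks. Their richness in these peaks for their length is therefore a description, and nothing is read from it. They made up 0.0953% of the length of the chromosomes used and held 46 of 688 untreated A1-2 PR peaks (6.69%, 4.94 to 8.82) and 11 of 221 untreated MTVL PR peaks (4.98%, 2.51 to 8.73). The density was 15.9 A1-2 peaks per Mb against 0.227 over the genome. All of these peaks were kept by the rule, since no untreated GR peak lay in the windows and the single input peak there (chromosome 6 from 26739195 to 26740037) was 167 kb from the nearest member. After R5020 the density of PR peaks was 14.9 per Mb in the windows of A1-2 cells against 9.42 over the genome, and 19.0 against 14.3 in MTVL cells. Most of these were peaks at members, for which the windows were chosen, so nothing is read from the totals. Away from members the R5020 PR peaks came to 5.88 per Mb of the windows in A1-2 cells and 8.65 in MTVL cells. The genome densities count all peaks, those at members included, so they are not a like comparison.

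The state of the members after hormone was read from lists that the rule had not used. Of the 42 window members 26 (61.9%, 45.6 to 76.4) overlapped an R5020 PR peak of A1-2 cells and 29 (69.0%, 52.9 to 82.4) one of MTVL cells. Of all 845 untreated PR regions 79.3% and 45.0% did, so the window share was below that background in A1-2 cells and above it in MTVL cells. At GR the window members were empty, though 7 GR Dex peaks lay elsewhere in the windows. None of the 42 lay at a GR peak after Dex or after R5020, and a count of 0 in 42 allows a share of up to 7.14% (taken as 3 of 42; the exact upper limit is 8.41%), whereas 59.8% and 31.0% of all untreated PR regions lay at a GR peak after Dex and after R5020. The nearest GR Dex peak was between 5.16 kb and 418 kb away from a member, with a median of 45.7 kb. By window, PR peaks of A1-2 cells after R5020 lay at 21 of 36 members on chromosome 6 and at 5 of 6 on chromosome 5, and those of MTVL cells at 24 of 36 and 5 of 6.

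Over both PR lists after R5020, 24 of the window members (57.1%, 41.0 to 72.3) were PR sites in both lines, 2 in A1-2 cells only, 5 in MTVL cells only and 11 in neither. Outside, 276 of 591 members (46.7%, 42.6 to 50.8) were PR sites in both lines, and 111 of the 411 with an A1-2 peak (27.0%, 22.8 to 31.6). The 11 window members with untreated peaks in both lines were all PR sites in both lines after R5020, as were all 28 such members outside. In the other 31 window members this held for 13. Of the 11 members with no PR peak after R5020, those of highest untreated A1-2 score lay on chromosome 6 from 26305572 to 26305760 (score 216), from 27144877 to 27145173 (214) and from 26987987 to 26988330 (203). Those from 27487155 to 27487427 (189) and from 27763536 to 27763854 (182) followed. Neither member of the small group between 26987987 and 27145173 was called after R5020.

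Whether a window member was called after R5020 went with its untreated score. All 17 members with an untreated A1-2 score of at least 400 were PR peaks after R5020 in both lines, close to the 57 (A1-2) and 54 (MTVL) of 58 outside members of that strength. Of the 10 members below 200, R5020-treated A1-2 cells had a PR peak at 1 and MTVL cells at 1, against 209 and 56 of 312 outside members below 200. Members called in A1-2 cells after R5020 had a median untreated score of 454 (186 to 1147), and the 16 that were not had one of 185 (118 to 359). For the MTVL list the medians were 422 for the 29 called and 182 for the 13 not called. The weakest members stood close to 100, the lowest score that any list holds. With depth unknown, a member without a peak after R5020 is one where none was called, not one shown to lack PR.

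**Figure D2:**
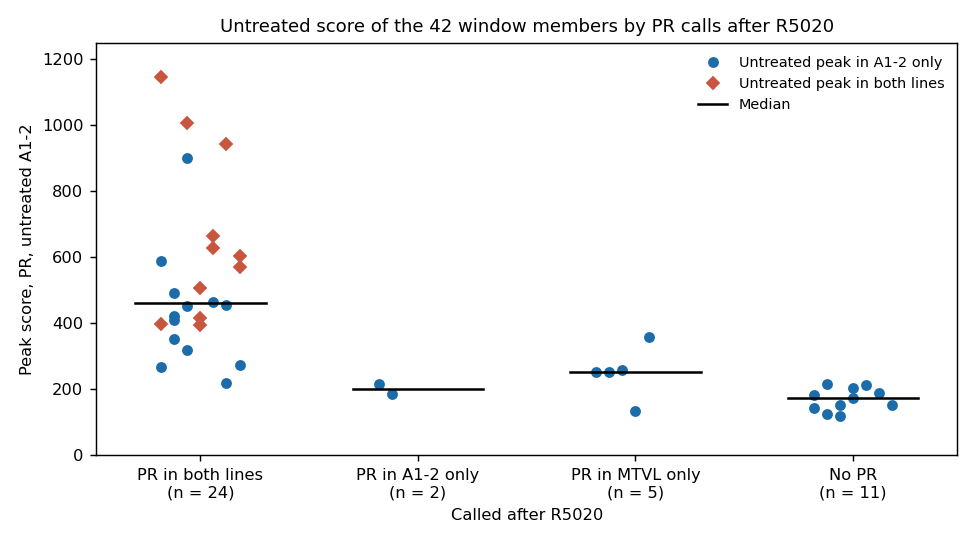
Untreated A1-2 peak score (vertical axis) of each of the 42 window members, grouped by the lines in which the member was a PR peak after R5020 (horizontal axis). Diamonds are members with untreated peaks in both lines, circles members with an untreated A1-2 peak only, and lines are medians. The 17 members at 400 or more are all in the group called in both lines.

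The PR peaks that R5020-treated cells had at these members were weak within their lists, with 10 of 26 above the list's median in A1-2 cells and 4 of 30 in MTVL cells. The 26 peaks of A1-2 cells had scores from 109.7 to 551 with a median of 177, against a median of 243 for all 28553 peaks of that list. The 30 peaks of MTVL cells scored from 105 to 590 with a median of 191, against 312 for all 43398. None of them lay above the 90th percentile of its list, which was 1306 in A1-2 and 1921 in MTVL cells. Untreated PR peaks of MTVL cells only, which were 180 of the outside members and 0 of the window members, were different. Their peaks after R5020 had medians of 1637 in A1-2 and 3100 in MTVL cells, where 3100 was the most common score of the list, carried by 1869 of its peaks. In A1-2 cells the untreated and R5020 peaks of window members lay closer together than outside, where peaks in runs of close peaks were included. Distances without runs or at matched scores were not analysed, so the difference is not read as a trait of the windows. Midpoints of 28 untreated A1-2 peaks and the R5020 peaks of A1-2 cells over them lay a median of 40.3 bp apart (24.5 to 61.5), compared with 151 bp (126 to 191) for 314 such peaks outside the windows. The R5020 peaks over them were also narrower, with median widths of 660 bp in the windows and 1041 bp outside. In MTVL cells the distances were alike, 60.5 bp (27.0 to 228.5) for 11 peaks in the windows and 63.5 bp (58.5 to 76.5) for 207 outside.

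Compared with the members outside, the window members differed most clearly at GR. Of the 591 outside members 346 (58.5%, 54.5 to 62.5) lay at a GR Dex peak, a difference of -58.5 percentage points for the window members (-62.4 to -49.3). For GR after R5020 it was 28.4% outside and a difference of -28.4 points (-32.2 to -19.3). That list was short, with 1197 peaks used against 18526 for GR after Dex. In the windows as a whole GR Dex peaks stood at 2.42 per Mb against 6.11 over the genome, and no GR R5020 peak was called. Since every window member had an A1-2 peak, the 411 outside members with one are the nearer comparison. Of these, 51.1% lay at a GR Dex peak and 37.2% at a GR R5020 peak, and 42.6% (37.7 to 47.5) had neither. Many outside members stood in runs of close peaks, defined as at least 5 untreated A1-2 peaks of GR or PR with gaps of at most 20 kb, and chromosome 16 alone held 120 outside members. Without members in runs, 230 with an A1-2 peak were left, of which 29.6% (23.7 to 35.9) lay at a GR Dex peak and 17.0% at a GR R5020 peak. The differences of the window members were then -29.6 points (-35.8 to -19.5) and -17.0 points (-22.3 to -7.54). Of the window members 22 stood in runs themselves and were kept in this comparison.

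**Figure D3:**
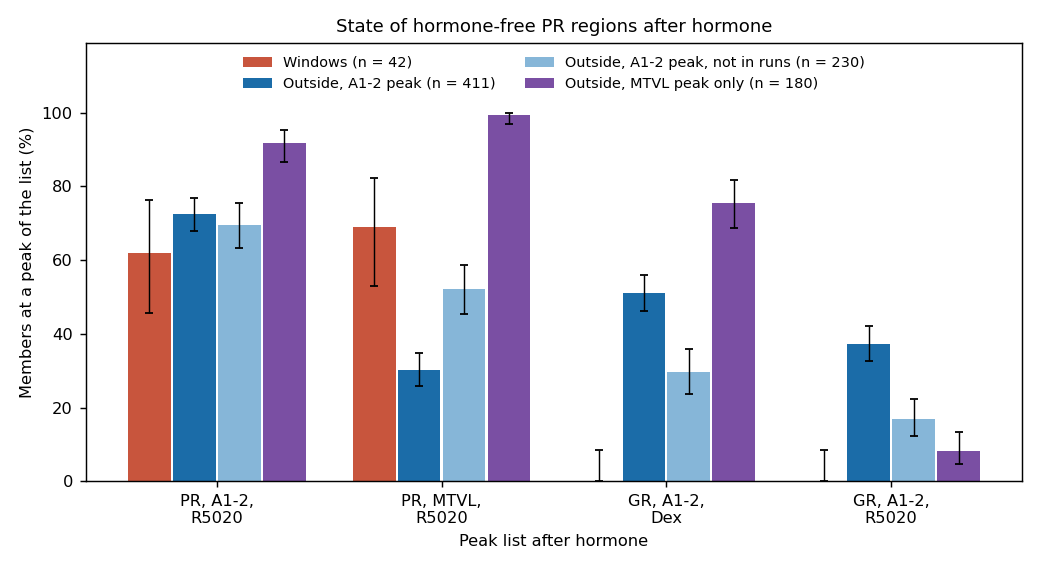
Share of hormone-free PR regions that lie at a peak of each list after hormone (vertical axis, percent), for the window members and 3 sets of members outside, those with an A1-2 peak, those of them not in runs and those with an MTVL peak only. Bars are shares and whiskers exact 95% intervals over regions. Window members have PR shares of 61.9% and 69.0% and are at 0 in both GR lists, where the outside sets drawn lie between 8.33% and 75.6%.

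The lack of GR was not particular to the windows among strong sites. Of the 58 outside members with an untreated A1-2 score of at least 400, 7 (12.1%) had a GR peak after hormone and 47 were PR sites in both lines without GR, the state of all 17 window members of that strength. The difference at that strength, -12.1 points (-22.9 to 7.35), had an interval that included 0. The same held for members with untreated peaks in both lines, where 0 of 11 in the windows and 8 of 28 outside (28.6%) lay at a GR Dex peak (-28.6 points, -47.1 to 0.537), and none of either set lay at a GR R5020 peak. Below a score of 400, 229 of 353 outside members (64.9%) and 0 of 25 window members had a GR peak after hormone, and without runs 71 of 173 outside members did (41.0%, a difference of -41.0 points, -48.5 to -26.0).

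At PR the difference from the outside members depended on which of them were taken, on the score and on the overlap rule. In A1-2 cells after R5020, 78.3% of all outside members and 61.9% of window members were PR peaks (-16.4 points, -31.8 to -2.88). Against outside members with an A1-2 peak the difference was -10.6 points (-26.2 to 3.25). In MTVL cells after R5020 the window members were ahead by 17.8 points (2.18 to 30.3) of all outside members and by 38.9 points (23.1 to 51.5) of those with an A1-2 peak. With runs left out the first became -3.88 points (-19.5 to 8.83), and the second 16.9 points (0.511 to 30.4). The difference from all outside members was 9.92 points (-6.08 to 22.6) with peaks merged within 1 kb and turned to -12.1 (-28.8 to 5.48) with scores under 200 dropped. The A1-2 difference turned to 8.42 points (-7.13 to 22.4) with midpoints within 200 bp. Window members were also the stronger set, with 40.5% at 400 or more against 14.1% of outside members with an A1-2 peak. Set against the latter within score bands, the window members were lower in A1-2 cells below 200 (-57.0 points, -66.6 to -26.1) and higher in MTVL cells from 200 to 400 (39.2 points, 9.63 to 59.4). The interval of the difference included 0 in the other 4 of the 6 pairings of band and list, and without runs the MTVL difference from 200 to 400 was 19.2 points (-11.8 to 43.9).

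The windows also held PR peaks that were called only after hormone. Of the 43 PR peaks of A1-2 cells after R5020 in the windows, 26 lay at members and 17 elsewhere. Of the 17, 6 lay at a GR Dex peak (35.3%, 14.2 to 61.7), and of the 26 none did, which allows up to 11.5% (3 of 26; the exact upper limit is 13.2%). Over the whole A1-2 PR list 48.0% of peaks lay at a GR Dex peak, and 37.8% of the 19488 with scores in the range of those at members. Of the 7 GR Dex peaks in the windows all but 1 coincided with such a hormone-only PR peak of A1-2 cells. The strongest of the hormone-only sites with GR lay on chromosome 6 from 26515234 to 26515908, with a PR score of 650 in A1-2 cells, 5.12 kb from the strongest member. That site was named after its values were seen. In MTVL cells 30 of 55 PR peaks in the windows lay at members and 25 elsewhere, of which 5 were at a GR Dex peak of A1-2 cells (20%, 6.83 to 40.7). None of the 30 was (0 to 11.6), the intervals overlap, and 18.7% of the whole MTVL list in the same score range lay at a GR Dex peak.

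**Figure D4:**
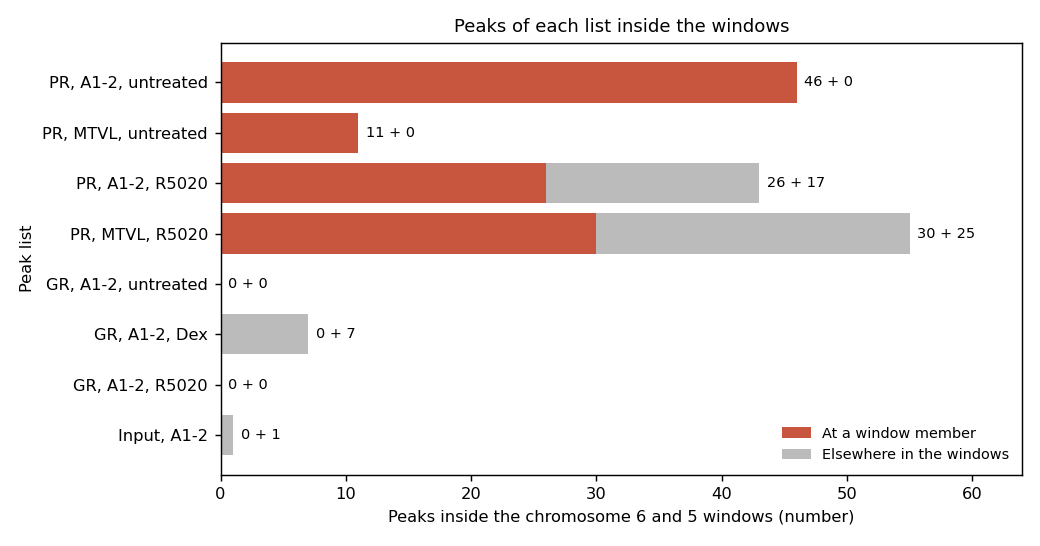
Number of peaks inside the chromosome 6 and chromosome 5 windows (horizontal axis) in each of the 8 lists (vertical axis), split into peaks at a window member and peaks elsewhere in the windows. All 46 and 11 untreated PR peaks are at members, since the rule left none of them out, whereas the 7 GR Dex peaks are all elsewhere.

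Outside the windows, other places also carried strong or grouped hormone-free PR peaks, some of them without GR. The 3 outside members of highest untreated A1-2 score scored 1691 (chromosome 11, 75946334 to 75947141), 1679.9 (chromosome 16, 22206510 to 22207708) and 1296 (chromosome 11, 59317530 to 59319104). All were PR peaks in both lines after R5020, with A1-2 scores of 613, 651 and 601. The first had a GR Dex peak of score 133 and the others had no GR peak. Stretches of at least 3 outside members with gaps of at most 250 kb numbered 30. In 25 of them some member had a GR peak after hormone. The other 5, picked because none had, held 23 members. Chromosome 1 had 6 of these members between 161369298 and 161582685, and chromosome 17 had 6 between 8022112 and 8126723. Chromosome 7 had 4 between 148638484 and 148684262, chromosome 14 had 4 between 21078191 and 21151686, and chromosome 16 had 3 between 57333715 and 57334645. Of their 23 members 15 had an R5020 PR peak of A1-2 cells and 16 had one of MTVL cells. Over all 845 untreated PR regions the shares were 79.3% and 45.0%. Untreated MTVL peaks lay at 3 of the 23, all on chromosome 17. In the stretch of 90 members on chromosome 16 from 34194244 to 35178488, 68 had a GR Dex peak and 51 a GR R5020 peak. R5020 gave a PR peak at 65 of the 90 in A1-2 cells and at 1 in MTVL cells.

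Members with an A1-2 peak that were PR sites in both lines after R5020 and had no GR peak were counted by chromosome. Chromosome 6 had the most, 21 of its 47 members with an A1-2 peak. Its window held 19 of the 21 and 36 of the 47. Chromosomes 1 and 17 had 10 of 28 and 10 of 14, and chromosomes 15 and 16 had 8 of 9 and 8 of 114. Chromosome 5 followed with 7 of 18, and its window held 5 of the 7 and 6 of the 18. Over all outside members with an A1-2 peak, 78 of 411 were in this state. The RefSeq table has 155 nuclear tRNA genes on chromosome 6, 98 on chromosome 1, 33 on chromosome 17, 9 on chromosome 15, 26 on chromosome 16 and 18 on chromosome 5. Chromosome 7, with 22 tRNA genes, had 4 of 23 such members, and chromosome 14, with 19, had 6 of 20. Chromosomes 11 and 2, with 13 and 8 tRNA genes, had 5 of 24 and 5 of 29. Chromosomes differ in length and gene number as well, and the windows on chromosomes 5 and 6 were chosen for their peaks, so these counts are given side by side only.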

How the data were processed

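Each of the 8 libraries had a deposited peak list giving the position and a score of every peak. Per the submitters' processing notes, the build was hg19 and the tools included MACS 1.4.2, Bowtie 1.1.1 and bedtools. Caller settings and control library were not given in the sources used here. The deposited score is the authors' value for each peak, taken here as -10 times log10 of its p, since its lowest value is 100 and the deposited names give 1e-10. It was used to rank or filter peaks within a list. Positions count from 1.

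The members, windows and lists compared were chosen with earlier results of these data known. Peaks counted as shared at 1 bp of overlap. Shares have exact Clopper-Pearson intervals, differences of shares Newcombe intervals, and medians order-statistic intervals. Regions named were the 5 of highest untreated score per window, those called in both lines, the 5 strongest without PR after R5020, those beside the window bounds and the 3 strongest outside. Merging and overlap were checked on simulated lists and against bedtools 2.31.1. Other score, overlap, exclusion, merging, list and window choices were tried as alternatives. Of these, 2 on the outside members compared were added after seeing the data, as were the score bands. Software was matplotlib 3.10.9, statsmodels 0.14.6, scipy 1.17.1, numpy 2.4.6 and Python 3.11.15.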

Additional observations from a re-analysis of the deposited data

How the results depend on the processing

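Of 217 alternatives over 20 results, 137 stayed within the 95% interval of the main value (1.5 times for counts), 76 moved further and 4 reversed. Reversed means that the difference changed sign, and the interval of each of the 4 included 0. The 137 are no measure of stability, since some settings changed nothing. Windows widened by 1 Mb held the same 42 members. No window region had been left out by the rule, so looser exclusions left the window shares as they were. In all 20 alternative values of the window members' GR shares the share was 0. These values could not differ, because the nearest GR Dex peak lay 5.16 kb from a member and no GR R5020 peak lay in the windows. They are therefore no sign of stability. With scores under 200 dropped from all lists there were 227 members, 15.4% of them in the windows, with window shares of 40.0% at A1-2 PR and 45.7% at MTVL PR after R5020 and 8.57% called in both lines untreated. The differences from outside were then -37.1 and, reversed, -12.1 points for PR in A1-2 and MTVL cells, and -40.1 and -18.2 points for GR after Dex and R5020. With midpoints within 200 bp the A1-2 PR difference reversed to 8.42 points, and the GR differences were -34.5 and -7.45, the latter with an interval that included 0 (-9.85 to 1.14). The GR differences were -62.9 and -32.6 points without exclusion and -64.3 and -34.8 with input excluded only. The A1-2 list alone put 9.66% in the windows, with differences of 36.5 for MTVL PR and -49.1 and -35.6 for GR. The MTVL list alone gave 219 members, 11 in the windows, 100% of these at PR in each line. The PR differences were then 7.21 points (reversed, -18.8 to 11.6) in A1-2 and 0.481 (-25.4 to 2.67) in MTVL cells. Those for GR were -69.2 after Dex and -7.21 after R5020 (-11.6 to 18.8). All of these intervals but that of GR after Dex included 0. Leaving runs out of the outside members reversed the MTVL PR difference to -3.88 and gave -13.2 for GR R5020. Taking only outside members with an A1-2 peak, chosen after seeing the data, gave 38.9 for MTVL PR and -37.2 for GR R5020, and with runs also left out -29.6 and -17.0 for GR. The cause of the reversals was not tested. No paired analysis was possible because each group had 1 library. Depth was unknown, which limits what a missing peak shows.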
